A study of Homo sapiens with 4 samples.

Results

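Fatty acids are built, desaturated, stored and burned by a set of enzymes whose transcripts were examined here after knockdown of the transcription factor CEBPB in A549 cells, a human lung adenocarcinoma cell line called NRF2-activated in the series title. The set was fixed by name: 32 genes, each matched to exactly 1 row of a table of 57820 genes. The list was drawn up with earlier results of these data known. Of these, 29 averaged at least 1 FPKM (fragments counted relative to transcript length and to library depth) over the 4 libraries and entered the test, beside 14068 tested genes in all. PPARA, ACSL5 and G0S2 lay under that level and are described by their values alone.

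The CEBPB knockdown group held 2 libraries, 1 from cells given CEBPB siRNA-1 and 1 from cells given CEBPB siRNA-2. The control group held 2 libraries from cells given a control siRNA. All cells were of the same parental line in DMEM with 10% serum, with fresh medium given 24 h after transfection and harvest another 24 h later. Each CEBPB siRNA was sequenced as a single library, so the spread within the knockdown group includes any difference between the siRNAs, and the labels do not say whether the controls were separate cultures. The p-values therefore measure only the spread between these libraries, which may be technical.

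De novo synthesis starts when citrate leaves the mitochondrion and is cut to acetyl-CoA, which is carboxylated to malonyl-CoA and assembled into palmitate. Elongases and desaturases shape the product, acyl-CoA synthetases activate it, and lipins and acyltransferases store it as triacylglycerol in droplets coated by perilipins. Oxidation begins with carnitine-dependent entry into mitochondria. The transcription factor SREBP-1 drives synthesis genes, whereas PPAR receptors, bound by fatty acids, drive storage and oxidation genes. In mouse preadipocytes C/EBP-beta acts early in adipogenesis, upstream of PPARG. Alveolar type II cells, the presumed origin of A549, use this pathway to make surfactant lipids.

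CEBPB itself stood at 12.9 FPKM with siRNA-1 and 10.97 FPKM with siRNA-2, against 78.7 and 80.9 FPKM in the controls, a limma log2 difference of -2.65 ± 0.17 (SE, n = 2 libraries per group; adjusted p = 0.0167). The libraries summed to 494066 to 528606 FPKM, and the authors' mean normalized counts sum to 8341083, the nearest figure to a depth in the table. The 32 genes took 0.268% and 0.242% of FPKM with siRNA-1 and siRNA-2 and 0.268% in both controls. Of 10 epithelial and alveolar markers, 6 reached 1 FPKM in a library, KRT8 being at 1226 and 1467 FPKM with siRNA-1 and siRNA-2 and 1835 and 2517 FPKM in the controls, while NKX2-1, SFTPB and SFTPA1 were listed at 0 throughout. Their summed level was 1825 and 2842 FPKM with siRNA-1 and siRNA-2 against 3601 and 5059 FPKM in the controls, a sum carried by KRT8 and KRT18. KRT18 fell in the authors' deposited table (log2 change -1.21, adjusted p = 0.0317), while KRT8 did not pass there (-0.71, adjusted p = 0.0868). No gene of this marker list passed in limma. KRT19, in the same list, lay on the other side of the controls, at 5.32 and 7.38 FPKM with siRNA-1 and siRNA-2 against 2.41 and 3.28 FPKM in the controls (limma log2 difference 0.93, adjusted p = 0.248). The part of these shifts in the results was not tested. The adipocyte markers ADIPOQ, LEP, PLIN1 and FABP4 were at 0 in every library, and the 6 adipocyte markers summed to at most 2.997 FPKM with a CEBPB siRNA and 3.55 FPKM in a control. The 6 leukocyte markers summed to 17.6 and 6.70 FPKM with siRNA-1 and siRNA-2 and to 10.1 and 13.2 FPKM in the controls, all of it CD68 and CD14, with PTPRC at 0. The level of CD68 is uncertain, because its mean normalized count in the authors' deposited table was only 0.754. The 6 fibroblast markers summed to 4.48 and 2.34 FPKM with siRNA-1 and siRNA-2 and to 0.781 and 0.665 FPKM in the controls, and the 3 endothelial markers were at 0. Of the fibroblast markers only COL1A1 reached 1 FPKM in any library. COL1A1 rose in the authors' deposited table (log2 change 1.88, adjusted p = 0.00621) and did not pass in limma. The part of these levels in the results was not tested. In such bulk libraries fewer cells expressing a gene and less RNA per cell cannot be told apart.

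The promoters of 4 genes are printed, chosen by the expression results of the genes. PDK4 had the widest limma log2 difference among the 29 tested genes, and PLIN2, SCD and FADS3 were those called in the authors' deposited table. Each window runs from 250 bases before to 50 bases after the RefSeq start, 5′ to 3′ on the gene's strand, on build GRCh38.p14, whereas the submitters' notes name hg19. The windows are chr7:95596467-95596766 on the minus strand, chr9:19127443-19127742 on the minus strand, chr10:100346983-100347282 on the plus strand and chr11:61891496-61891795 on the minus strand. Capitals mark every match, on either strand, to a relaxed C/EBP motif (TTNNGNAA), the CCAAT box (CCAAT) or the E-box (CACGTG). No match in these 4 windows overlapped another.
PDK4: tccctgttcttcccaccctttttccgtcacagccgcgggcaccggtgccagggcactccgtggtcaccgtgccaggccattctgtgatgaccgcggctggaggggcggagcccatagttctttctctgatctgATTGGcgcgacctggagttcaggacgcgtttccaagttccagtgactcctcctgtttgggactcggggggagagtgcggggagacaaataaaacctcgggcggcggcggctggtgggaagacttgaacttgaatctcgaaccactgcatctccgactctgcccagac
PLIN2: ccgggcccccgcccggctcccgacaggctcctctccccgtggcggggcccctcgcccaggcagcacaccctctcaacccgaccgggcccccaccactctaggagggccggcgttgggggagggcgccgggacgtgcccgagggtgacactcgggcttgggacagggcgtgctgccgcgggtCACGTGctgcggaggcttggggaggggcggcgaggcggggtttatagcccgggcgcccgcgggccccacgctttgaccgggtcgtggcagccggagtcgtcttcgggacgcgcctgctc
SCD: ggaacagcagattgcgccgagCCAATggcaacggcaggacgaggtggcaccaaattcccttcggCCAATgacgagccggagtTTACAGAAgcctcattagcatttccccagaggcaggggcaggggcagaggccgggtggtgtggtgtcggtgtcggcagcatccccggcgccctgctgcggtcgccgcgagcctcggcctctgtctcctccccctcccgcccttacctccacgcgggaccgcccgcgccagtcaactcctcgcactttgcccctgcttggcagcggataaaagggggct
FADS3: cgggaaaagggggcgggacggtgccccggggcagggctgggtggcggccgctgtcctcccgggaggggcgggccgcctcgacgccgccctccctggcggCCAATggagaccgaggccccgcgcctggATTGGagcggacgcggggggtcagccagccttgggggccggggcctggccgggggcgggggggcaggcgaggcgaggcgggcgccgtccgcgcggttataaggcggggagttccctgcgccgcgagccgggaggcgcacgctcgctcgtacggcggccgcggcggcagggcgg

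SCD held the relaxed C/EBP motif 168 bases before its start, and PDK4, PLIN2 and FADS3 held none in these windows. CCAAT boxes lay 117 bases before the start of PDK4, 229 and 186 bases before that of SCD, and 151 and 123 bases before that of FADS3. PLIN2 had an E-box 69 bases before its start. No RefSeq window was matched for FASN, DGAT1, DGAT2 or FABP5. The other 28 of the 32 genes had 46 windows in all. The relaxed C/EBP motif was in 13 of them (28.3%), against 36.8% of all 35116 windows, and the CCAAT box in 16 (34.8%) against 34.6%. The palindromic C/EBP motif TTGCGCAA was in 0 of the 46, against 0.151% of all windows. A sterol regulatory element core (TCACNCCA) was in 3 (6.52%) against 3.95%, the E-box in 3 (6.52%) against 7.26%, the antioxidant response element core (TGACNNNGC) in 6 of the 46 against 13.3% of all windows, and the GC box (GGGCGG) in 28 (60.9%) against 45.0%. The PPAR response element, searched as a direct repeat with 1 spacer base, was in 0 of the 46 and in 0.31% of all windows. Such matches describe letters in a window and are not binding sites.

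In control cells the most abundant of the 32 transcripts were SCD, at 205 ± 23.9 FPKM, and ACLY, at 196 ± 0.439 FPKM (SD, n = 2). Their ranges overlapped (188 and 222 FPKM for SCD, 196 and 195 FPKM for ACLY). FADS2 followed at 154 ± 3.84 FPKM and FADS1 at 123 ± 1.90 FPKM, then FABP5 at 73.98 ± 14.3 FPKM, SREBF1 at 71.2 ± 5.80 FPKM, FASN at 66.1 ± 1.22 FPKM and HADHA at 65.1 ± 2.27 FPKM, a last quartet whose library values overlapped except that both SREBF1 libraries lay above both FASN libraries and both HADHA libraries. Desaturases thus held 3 of the 4 highest places. PPARA, at 0.391 ± 0.0863 FPKM, and G0S2, at 0.469 and 0 FPKM, were the lowest.

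**Figure D1:**
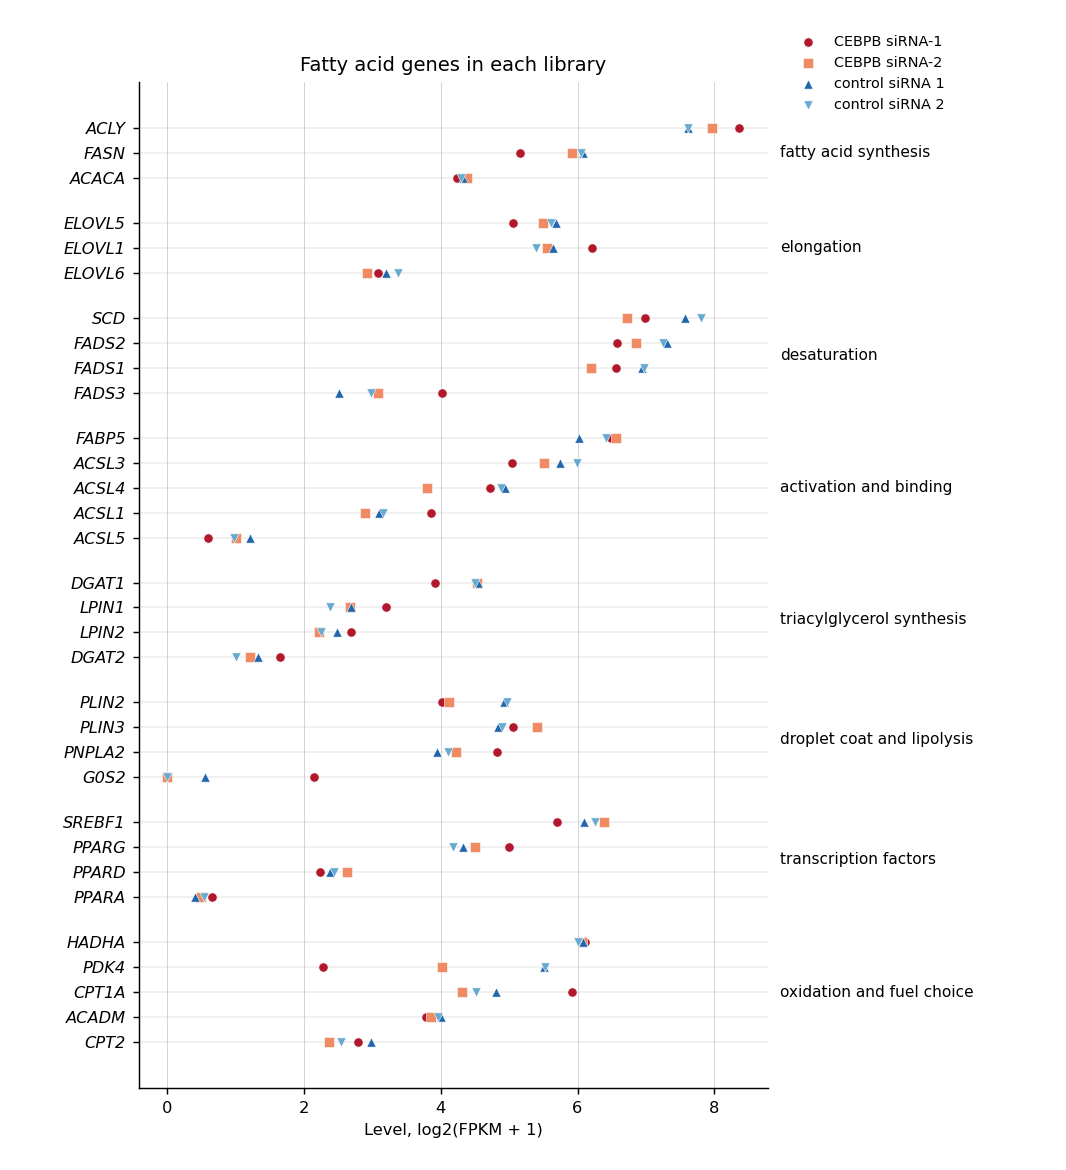
Level of each of the 32 genes on the log2(FPKM + 1) scale in the CEBPB siRNA-1, CEBPB siRNA-2 and both control libraries, grouped by role and ordered within a role by control mean. SCD, FADS1, FADS2 and PLIN2 have both siRNA points left of both control points, and the 2 PDK4 siRNA points, at 3.87 and 15.3 FPKM, lie far left of controls at 44.6 and 45.2 FPKM.

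Across the tested genes of the set, 0 rose and 0 fell in limma with Benjamini-Hochberg adjustment over all 14068 genes, where 0.235% of all genes passed, 0.064% higher and 0.171% lower. At an unadjusted p below 0.05, 1 was higher and 6 were lower, against 7.07% and 5.13% of all tested genes. The authors' deposited table, a count-based comparison of the same libraries, gives all 32 an adjusted p-value and calls 1 higher (FADS3) and 2 lower (SCD and PLIN2) at 0.05, against 2.71% and 1.42% of its 14675 genes. Both siRNA libraries lay above both controls for 6 of the 29 genes (20.7%, against 23.5% of all tested genes) and below both for 11 (37.9%, against 21.0%). The median log2 difference was -0.0053 in the set and 0.0010 over all tested genes, with 14 positive and 15 negative values in the set. The median size of the difference was 0.37 in the set and 0.22 over all. Differences of low genes are understated on the log2(FPKM + 1) scale, and the part of expression level in these sizes was not tested. With 2 libraries per group an exact two-sided permutation test of 1 gene cannot give a p below 0.333.

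The 3 enzymes of palmitate synthesis went separate ways, and none passed the adjusted limma threshold. ACLY, which cuts citrate to acetyl-CoA, was at 328 FPKM with siRNA-1 and 248.8 FPKM with siRNA-2, against 196 and 195 FPKM in the controls. Both siRNA libraries were above both controls, with a log2 difference of 0.54 ± 0.19 (SE, n = 2; adjusted p = 0.336). FASN, which assembles palmitate, was at 34.9 FPKM with siRNA-1 and 59.7 FPKM with siRNA-2, against 66.9 and 65.2 FPKM in the controls. The siRNA-1 library was the low one, at 0.528 of the control mean, and siRNA-2 was at 0.905 of it. ACACA, which makes malonyl-CoA, was at 17.8 and 19.9 FPKM with siRNA-1 and siRNA-2 and 19.1 and 18.6 FPKM in the controls, a log2 difference of -0.0053 ± 0.17. The log2 difference of FASN was -0.52 ± 0.27 (adjusted p = 0.525), and the authors' deposited table gives -0.51 for FASN, 0.52 for ACLY and -0.059 for ACACA, with adjusted p-values of 0.517, 0.362 and 0.999.

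Of the 4 desaturases, 3 were lower and 1 was higher in both siRNA libraries than in both controls, patterns that 21.0% and 23.5% of all tested genes had. SCD, which makes monounsaturated fatty acids, was at 126 FPKM with siRNA-1 and 105 FPKM with siRNA-2, against 188 and 222 FPKM in the controls. Both siRNA libraries were low, at 0.615 and 0.510 of the control mean. In limma the log2 difference was -0.83 ± 0.18 (unadjusted p = 0.00427 and adjusted p = 0.176), and SCD fell in the authors' deposited table (-0.83 ± 0.25, adjusted p = 0.0214). FADS1 and FADS2 are the desaturases of polyunsaturated fatty acid synthesis. FADS1 was at 93.4 and 72.5 FPKM with siRNA-1 and siRNA-2, against 121 and 124 FPKM in the controls. FADS2 was at 94.4 and 114.6 FPKM with siRNA-1 and siRNA-2, against 157 and 152 FPKM in the controls. The groups did not overlap for either, and FADS1 was lowest with siRNA-2 while FADS2 was lowest with siRNA-1. Their log2 differences were nearly equal, -0.57 ± 0.18 for FADS1 and -0.57 ± 0.17 for FADS2, with limma adjusted p-values of 0.302 and 0.276. The authors' deposited table gives -0.59 for FADS1 (adjusted p = 0.207) and -0.65 for FADS2 (adjusted p = 0.0792).

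FADS3, a related desaturase that acts on sphingoid bases, differed in the other direction. It was at 15.2 FPKM with siRNA-1 and 7.51 FPKM with siRNA-2, against 4.71 and 6.87 FPKM in the controls. Both siRNA libraries were above both controls, but siRNA-2 exceeded the higher control only narrowly. The log2 difference was 0.81 ± 0.36 (limma adjusted p = 0.456), whereas FADS3 rose in the authors' deposited table (1.19 ± 0.36, adjusted p = 0.0313). The summed level of all 4 desaturases was 329 and 299 FPKM with siRNA-1 and siRNA-2 and 471 and 505 FPKM in the controls, set mainly by SCD, FADS1 and FADS2.

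**Figure D2:**
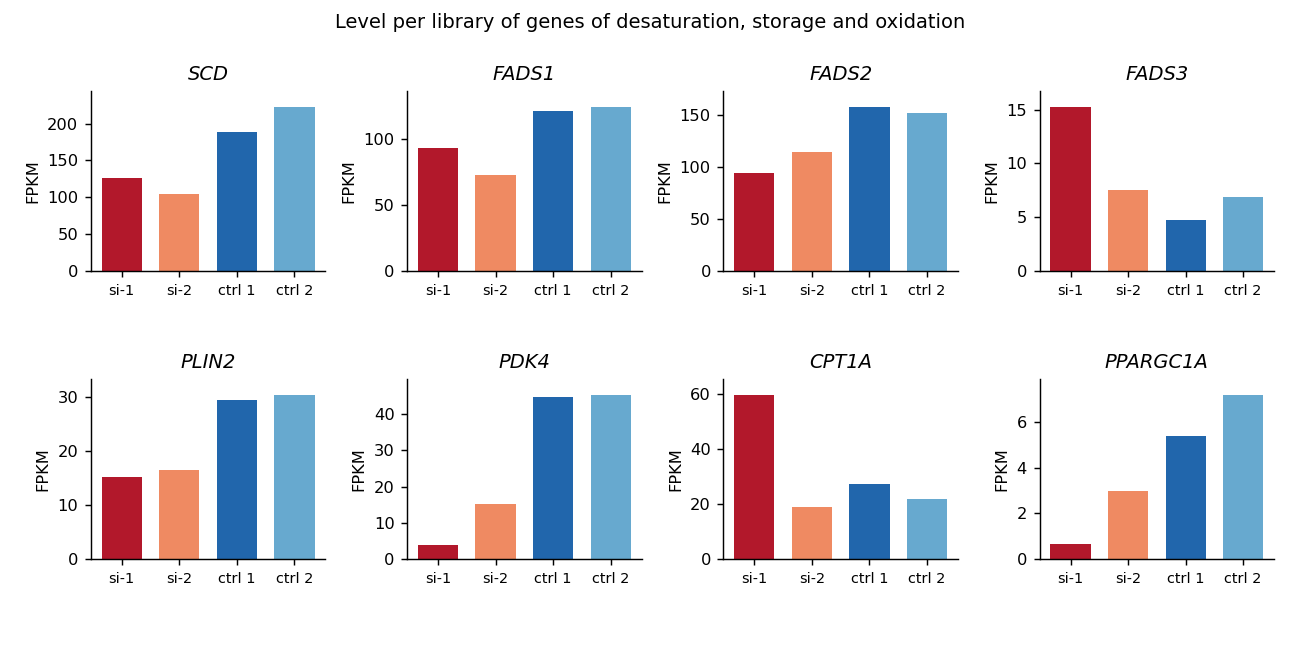
FPKM per library, from left to right CEBPB siRNA-1, CEBPB siRNA-2, control 1 and control 2, for 7 of the 32 genes and the coactivator PPARGC1A, each with its own axis from 0. SCD, FADS1, FADS2, PLIN2, PDK4 and PPARGC1A are lower in both siRNA libraries than in both controls, FADS3 is higher in both, and CPT1A is higher with siRNA-1 only, at 59.3 FPKM.

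FADS1, FADS2 and FADS3 are neighbours on chromosome 11, so the adjoining protein-coding genes were examined, 3 on each side in RefSeq order. TMEM258 was at 31.6 and 25.7 FPKM with siRNA-1 and siRNA-2, against 37.9 and 40.5 FPKM in the controls (log2 difference -0.45 ± 0.18, limma adjusted p = 0.402). FTH1, the ferritin heavy chain, was at 3836 and 3024 FPKM with siRNA-1 and siRNA-2, against 5053 and 4829 FPKM in the controls (-0.54 ± 0.19, adjusted p = 0.353). FEN1, MYRF and RAB3IL1 had log2 differences of -0.066, -0.16 and -0.10, with libraries that overlapped between the groups. FADS3 alone of the 8 tested genes in this stretch had a positive difference, while BEST1 was under 0.5 FPKM in every library and was not tested. In GENCODE 29 some FADS1 and FADS2 exons overlap on opposite strands and FADS2 shares exonic bases with FEN1. The annotation behind the deposited values may differ from that release. The sources used here do not state whether the counting used strand, so reads in those overlaps are uncertain.

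**Figure D3:**
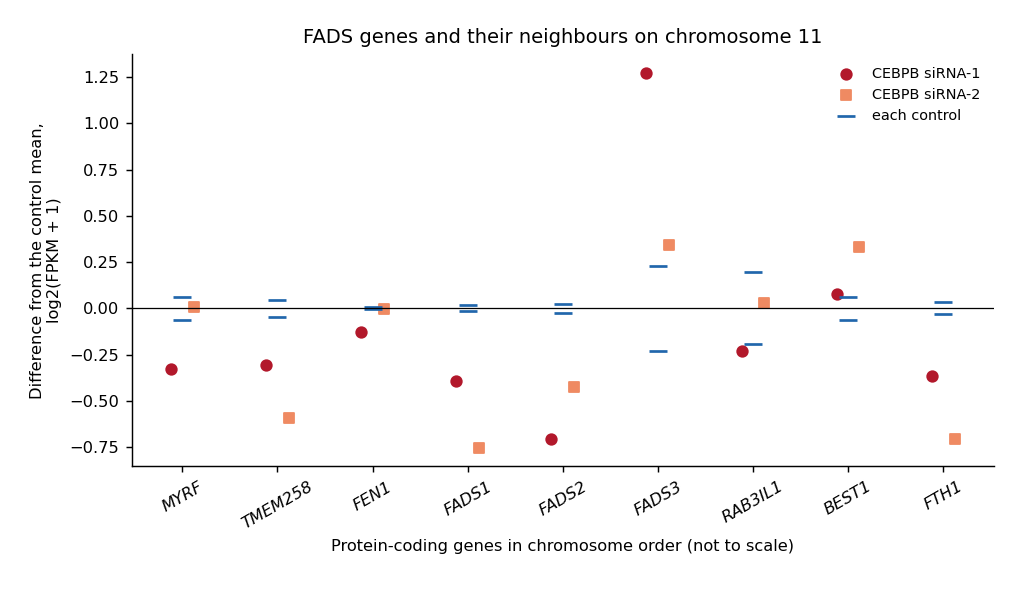
Difference of CEBPB siRNA-1, CEBPB siRNA-2 and each control from the control mean, on the log2(FPKM + 1) scale, for 9 protein-coding genes in their order on chromosome 11. FADS1 and FADS2 lie below the controls with both siRNAs, and FADS3 lies above them at 1.27 with siRNA-1 and 0.34 with siRNA-2.

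None of the 3 elongases passed the threshold in either table. ELOVL5, which lengthens polyunsaturated chains, was at 32.1 and 44.2 FPKM with siRNA-1 and siRNA-2, against 50.2 and 48.1 FPKM in the controls. ELOVL1, which makes very long saturated chains, was at 73.3 and 46.1 FPKM with siRNA-1 and siRNA-2, against 48.8 and 40.8 FPKM in the controls, so the siRNA-2 library lay among the controls. ELOVL6, which turns palmitate into stearate, was at 7.50 and 6.58 FPKM with siRNA-1 and siRNA-2, against 8.21 and 9.35 FPKM in the controls. ELOVL5 and ELOVL6 were lower in both siRNA libraries than in both controls. The limma log2 differences were -0.37 ± 0.20 for ELOVL5, 0.37 ± 0.26 for ELOVL1 and -0.28 ± 0.19 for ELOVL6, with adjusted p-values between 0.535 and 0.620. For ELOVL6 the authors' deposited table has the opposite sign, 0.089 ± 0.29.

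Acyl-CoA synthetases activate fatty acids for every later use, and none passed the threshold in either table. ACSL3, linked to droplet formation, was at 32.04 and 44.5 FPKM with siRNA-1 and siRNA-2, against 52.6 and 62.7 FPKM in the controls (log2 difference -0.59 ± 0.22, limma adjusted p = 0.363). ACSL4, which prefers arachidonic acid and is known for its part in ferroptosis, was at 25.3 FPKM with siRNA-1 and 12.98 FPKM with siRNA-2, against 29.8 and 28.3 FPKM in the controls. It was thus the siRNA-2 library that stood apart for ACSL4, at 0.447 of the control mean, with a log2 difference over both siRNAs of -0.65 ± 0.31 (adjusted p = 0.495). ACSL1 was at 13.5 and 6.45 FPKM with siRNA-1 and siRNA-2, against 7.55 and 7.87 FPKM in the controls, above both controls with siRNA-1 and below both with siRNA-2. ACSL5 was at 0.506 and 1.01 FPKM with siRNA-1 and siRNA-2, against 1.32 and 0.965 FPKM in the controls.

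FABP5, a cytosolic fatty acid carrier, was listed at 88.6 and 93.5 FPKM with siRNA-1 and siRNA-2, against 63.9 and 84.1 FPKM in the controls (log2 difference 0.31 ± 0.19, limma adjusted p = 0.578). That level is uncertain because FABP5 has near-identical pseudogenes. The 14 pseudogene rows named FABP5P sum to 158 and 176 FPKM with siRNA-1 and siRNA-2 and to 119 and 149 FPKM in the controls. In the authors' deposited table their mean normalized counts sum to only 0.775, beside 159 for FABP5 itself. FABP5P7 alone was listed at 117 and 125 FPKM with siRNA-1 and siRNA-2 and 83.8 and 107 FPKM in the controls, above FABP5 in each library.

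Genes of triacylglycerol synthesis all overlapped between the groups or fell on either side of the controls. LPIN1, a phosphatidate phosphatase, was at 8.22 and 5.37 FPKM with siRNA-1 and siRNA-2, against 5.45 and 4.22 FPKM in the controls. LPIN2, of the same family, was at 5.44 and 3.66 FPKM with siRNA-1 and siRNA-2, against 4.57 and 3.78 FPKM in the controls. For both lipins siRNA-1 gave the highest of the 4 values and siRNA-2 lay near the controls. DGAT1, which adds the last acyl chain, was at 14.2 and 22.01 FPKM with siRNA-1 and siRNA-2, against 22.5 and 21.7 FPKM in the controls. DGAT2, an unrelated enzyme for the same step, was at 2.14 and 1.31 FPKM with siRNA-1 and siRNA-2, against 1.51 and 1.005 FPKM in the controls. Their log2 differences spanned -0.31 (DGAT1) to 0.40 (LPIN1), with limma adjusted p-values between 0.601 (LPIN1) and 0.926 (LPIN2). DGAT1 overlaps HSF1 on the opposite strand in GENCODE 29, which may differ from the annotation behind the deposited values.

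The droplet coat protein PLIN2 had the smallest limma p of the set. PLIN2 was at 15.1 FPKM with siRNA-1 and 16.5 FPKM with siRNA-2, against 29.4 and 30.3 FPKM in the controls. The libraries of each group lay close together, at 0.507 and 0.552 of the control mean, and far from the other group. The limma log2 difference was -0.88 ± 0.16 (unadjusted p = 0.00205, adjusted p = 0.140), and PLIN2 fell in the authors' deposited table (-0.92 ± 0.26, adjusted p = 0.0127). PLIN3, a coat protein that also has a cytosolic pool, was at 32.3 and 41.4 FPKM with siRNA-1 and siRNA-2, against 27.6 and 28.8 FPKM in the controls (log2 difference 0.36 ± 0.19, adjusted p = 0.524). PNPLA2, the lipase that starts triacylglycerol breakdown, was at 27.3 and 17.6 FPKM with siRNA-1 and siRNA-2, against 14.4 and 16.2 FPKM in the controls (0.49 ± 0.25, adjusted p = 0.508). PLIN3 and PNPLA2 were thus on the other side of the controls from PLIN2. G0S2, an inhibitor of that lipase, was at 3.42 FPKM with siRNA-1, at 0.469 FPKM in control 1, and listed at 0 with siRNA-2 and in control 2, on an authors' mean normalized count of 8.64 in their deposited table.

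The transcription factors gave no member past a threshold in either table. SREBF1, which encodes SREBP-1, was at 50.9 FPKM with siRNA-1 and 82.5 FPKM with siRNA-2, against 67.1 and 75.3 FPKM in the controls. The siRNAs lay on opposite sides of both controls, and the limma log2 difference over both was -0.13 ± 0.26 (adjusted p = 0.885). The authors' deposited table lists SREBF1 at -0.57 ± 0.29 (adjusted p = 0.432). PPARG, the adipogenic PPAR receptor, was at 31.0 and 21.7 FPKM with siRNA-1 and siRNA-2, against 19.1 and 17.0 FPKM in the controls (0.50 ± 0.22, limma adjusted p = 0.460). PPARD was at 3.69 and 5.19 FPKM with siRNA-1 and siRNA-2, against 4.19 and 4.44 FPKM in the controls, and PPARA, the receptor that drives hepatic oxidation, was at 0.578 and 0.407 FPKM with siRNA-1 and siRNA-2, against 0.330 and 0.453 FPKM in the controls. PPARG was the most abundant PPAR receptor in all 4 libraries.

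Among the 5 oxidation and fuel choice genes of the set PDK4 differed by the most. PDK4 encodes a kinase that shuts off pyruvate dehydrogenase and so favours fatty acids as fuel. PDK4 was at 3.87 FPKM with siRNA-1 and 15.3 FPKM with siRNA-2, against 44.6 and 45.2 FPKM in the controls. Both siRNA libraries were low, to unequal degrees, at 0.0861 and 0.340 of the control mean. The limma log2 difference was -2.37 ± 0.54 (unadjusted p = 0.00563, adjusted p = 0.191), and the authors' deposited table gives -2.33 ± 0.90 with an adjusted p of 0.149, so PDK4 passed in neither table.

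CPT1A, which makes acylcarnitine for mitochondrial entry, was at 59.3 FPKM with siRNA-1 and 18.9 FPKM with siRNA-2, against 27.1 and 21.8 FPKM in the controls. It was far above both controls with siRNA-1 and below both with siRNA-2, and the log2 difference over both siRNAs was 0.45 ± 0.51 (limma adjusted p = 0.777). CPT2, which reverses the transfer inside the mitochondrion, was at 5.92 and 4.14 FPKM with siRNA-1 and siRNA-2, against 6.90 and 4.80 FPKM in the controls. ACADM, the medium-chain acyl-CoA dehydrogenase, was at 12.8 and 13.4 FPKM with siRNA-1 and siRNA-2, against 15.1 and 14.6 FPKM in the controls. HADHA, a subunit of the trifunctional protein of beta-oxidation, was at 68.2 and 65.7 FPKM with siRNA-1 and siRNA-2, against 66.7 and 63.4 FPKM in the controls. The limma log2 differences were -0.17 ± 0.17 for ACADM and 0.041 ± 0.15 for HADHA (adjusted p = 0.747 and 0.940).

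**Figure D4:**
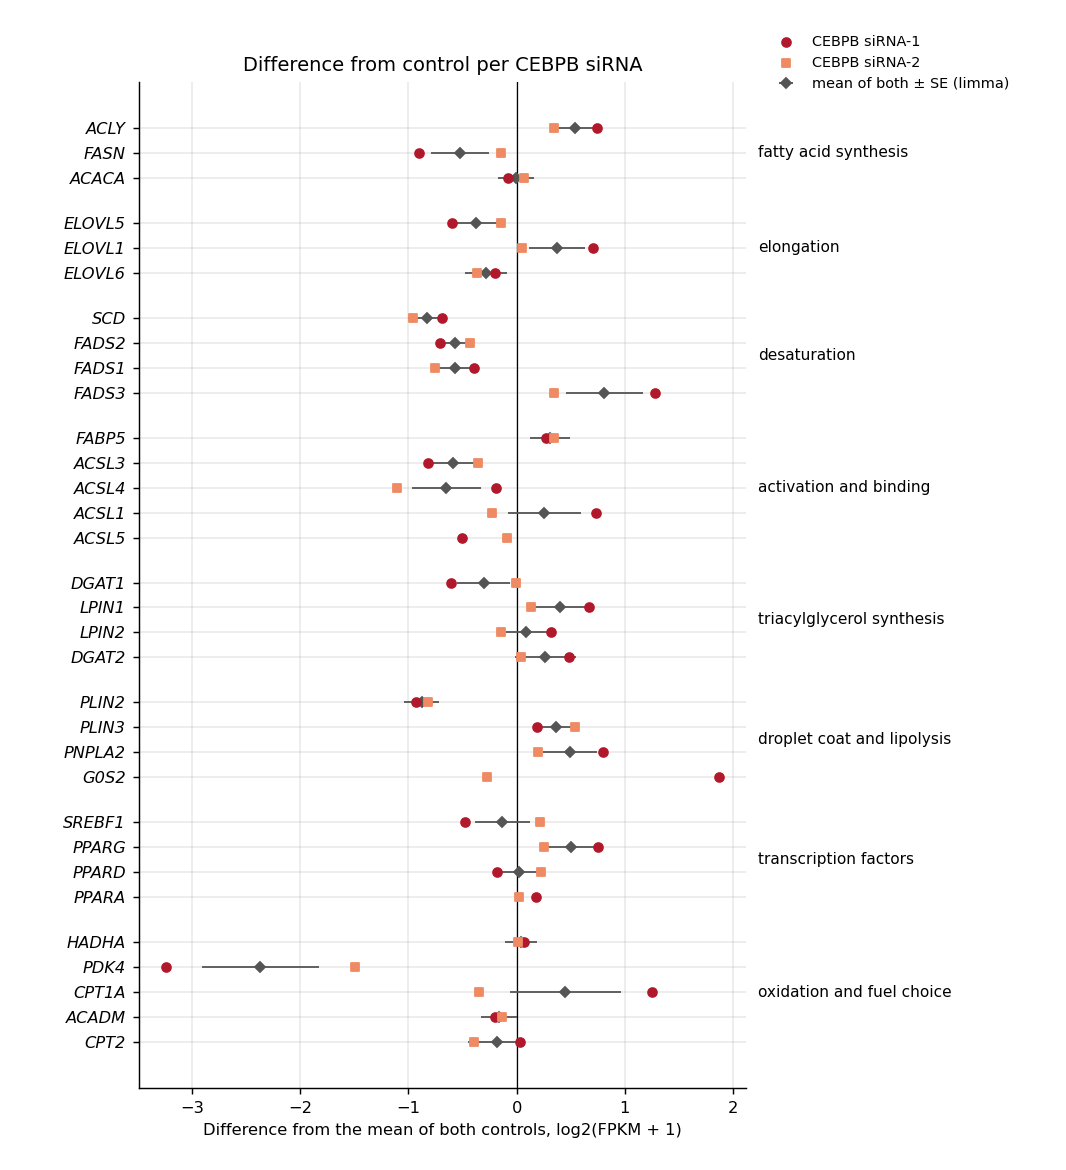
Difference of each CEBPB siRNA from the mean of both controls, on the log2(FPKM + 1) scale, with the limma mean of both siRNAs and its SE for the 29 tested genes. PLIN2 shows the siRNAs close together near -0.93 and -0.82, whereas PDK4 (-3.24 and -1.50) and CPT1A (1.25 and -0.35) show them far apart.

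The siRNAs were compared directly in a limma fit with 3 groups. There only the controls supply residual spread, 1 degree of freedom, taken to hold for the siRNA libraries too. The limma prior, estimated over all tested genes, added 3.92 degrees of freedom. In that fit 1 of the 29 genes passed the adjusted threshold, against 0.441% of all tested genes, and 13 had an unadjusted p below 0.05 (44.8%, against 22.4% of all tested genes). The gene was PDK4, with a log2 difference of siRNA-1 minus siRNA-2 of -1.74 ± 0.17 (adjusted p = 0.0467). PDK4 did not pass with a pseudocount of 0.1 or with upper-quartile scaling (adjusted p up to 0.0635). CPT1A had the next smallest p, with a difference of 1.603 ± 0.21 (adjusted p = 0.0579). ACSL4 (0.91 ± 0.17), ACSL1 (0.96 ± 0.21), FASN (-0.76 ± 0.15) and SREBF1 (-0.69 ± 0.16) followed, with adjusted p-values of 0.0786, 0.0944, 0.0832 and 0.106. The siRNA libraries lay on opposite sides of both controls for 6 of the 29 genes, or 20.7% against 20.3% of all tested genes: ACACA, ACSL1, LPIN2, SREBF1, PPARD and CPT1A.

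Against the same 2 controls, siRNA-1 alone gave 5 higher genes (ACLY, FADS3, PNPLA2, PPARG and CPT1A) and 5 lower (FASN, FADS2, ACSL3, PLIN2 and PDK4) in limma at an adjusted p below 0.05. These counts stand against 6.18% and 6.35% of all tested genes. With siRNA-2 alone PDK4 fell and 0 of the 29 rose, against 0.313% and 0.199% of all tested genes. Each of these fits rests on 1 knockdown library assumed to vary as the controls do. Without control 1 or without control 2, 0 of the 29 genes and 0 of all genes passed in limma. At an unadjusted p below 0.05 there were 3 of the 29 without control 1, against 5.23% of all tested genes, and 2 without control 2, against 4.87%. In the 3-group fit of the mean of both siRNAs, ACLY rose and SCD, FADS1, FADS2, ACSL4, PLIN2 and PDK4 fell, against 3.82% and 3.08% of all tested genes.

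Other genes of the same pathways were counted from lists of 129 genes, of which 99 were tested. In limma 0 rose and 0 fell, and 3 higher and 6 lower had an unadjusted p below 0.05, or 9.09% against 12.2% of all tested genes. Their median log2 difference was -0.026. The authors' deposited table gives 107 of them an adjusted p-value and calls 1 higher and 2 lower, against 2.71% and 1.42% of all its genes, so the count is near that over all genes. ELOVL2, a polyunsaturated elongase in the list of 16 tested synthesis and desaturation genes, was at 15.1 and 12.3 FPKM with siRNA-1 and siRNA-2, against 5.72 and 6.75 FPKM in the controls, and rose in the authors' deposited table by 1.12 (adjusted p = 0.00583; limma adjusted p = 0.156). SOAT1, counted in the list of 12 tested glycerolipid genes, esterifies cholesterol for droplets and does not itself make glycerolipids. It was at 5.12 and 7.13 FPKM with siRNA-1 and siRNA-2, against 11.9 and 11.7 FPKM in the controls. SOAT1 fell in the authors' deposited table (-0.96, adjusted p = 0.0105). PPARGC1A, a coactivator of oxidation genes and 1 of 31 tested oxidation genes, was at 0.641 FPKM with siRNA-1 and 2.97 FPKM with siRNA-2, against 5.38 and 7.17 FPKM in the controls. PPARGC1A fell in the authors' deposited table (-1.76, adjusted p = 0.0182), and like PDK4 it was lowest with siRNA-1.

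No gene of the other 3 lists passed in either table. In these the smallest limma p belonged to NR1H3 among 16 tested SREBP and ChREBP control genes (log2 difference -0.59). It belonged to VLDLR among 13 of uptake and binding (0.62), and to BSCL2 among 11 of droplets and lipolysis (-0.64). In the uptake and binding list 1 gene was higher (VLDLR) and 1 lower (DBI) at an unadjusted limma p below 0.05. DBI had a log2 difference of -0.71, with an unadjusted limma p of 0.0467 against 0.0465 for VLDLR. For BSCL2 the authors' deposited table has a log2 change of 0.17 on a mean normalized count of 38.8, so its direction differs between the measures.

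The table holds 2 measures of each gene, FPKM per library and the authors' count-based change, and for 28 of the 29 tested genes their signs matched. Both come from the same libraries, so the match is not independent evidence. ELOVL6 was the exception, and ELOVL6, FADS3 and SREBF1 were the genes where the log2 values lay more than 0.25 apart. For FADS3 the limma difference was 0.81 with a pseudocount of 1 and 0.90 with a pseudocount of 0.1, beside 1.19 in the authors' deposited table. For SREBF1, at 71.2 FPKM in the controls, the values were -0.13 from FPKM and -0.57 in the authors' deposited table. SREBF1 overlaps RAI1 on the opposite strand in GENCODE 29, which may differ from the annotation behind the deposited values. The part of that overlap in the values was not tested.

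**Figure D5:**
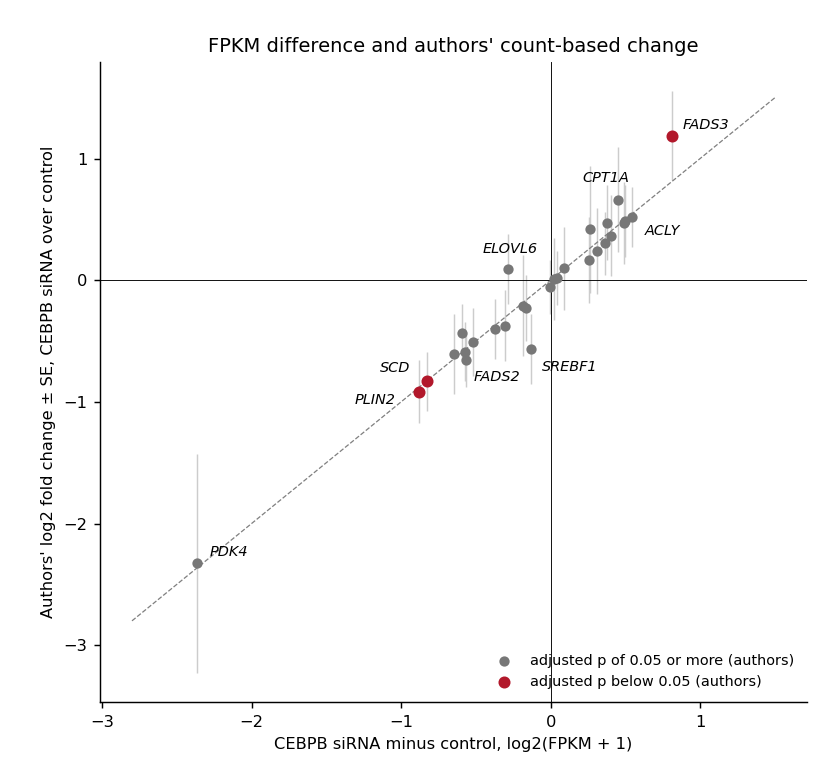
Limma difference of CEBPB siRNA minus control on the log2(FPKM + 1) scale (x axis) against the authors' log2 fold change with its SE (y axis) for the 29 tested genes, with the line of equality dashed. SCD, PLIN2 and FADS3, in red, pass the authors' adjusted threshold, SREBF1 lies below the line at -0.13 and -0.57, and ELOVL6 lies on the other side of 0 at -0.28 and 0.089.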

How the data were processed

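Total RNA of 4 A549 libraries was sequenced as strand-specific single-end reads of 76 bases, per the labels' protocols. The submitters' processing notes list, without roles or order, the build hg19 and the tools STAR (2.7.0d), StringTie (2.1.4), HTSeq (0.13.5) and DESeq2 (1.26.0). The authors deposited 1 value per gene and library, taken here as FPKM although the header names no unit, because the columns are not whole numbers and sum to unequal totals. No counts per library were used, so counting error could not be given. The other columns have, per the file headers, the form of a DESeq2 results table: the authors' signal of mean normalized counts, log2 fold changes with standard errors, a Wald score, p-values and adjusted p-values. The direction of the authors' log2 change was read from its sign against FPKM.

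The test was limma 3.58.1 in R 4.3.3 on log2(FPKM + 1), with an intensity trend and no block. It covered every gene averaging at least 1 FPKM, and p-values were adjusted over all of them by the Benjamini-Hochberg method with a threshold of 0.05. Residual degrees of freedom were 2, with 3.61 added by the prior. The fit was run on simulated data with planted changes larger than those of every tested gene of the set but PDK4. The simulation held no difference between the siRNAs, so it does not bear on smaller changes or on siRNA differences. On this scale the changes of low genes are understated. Alternatives were another pseudocount, no filter, 2 scalings, a replicate block, 3 groups and each library left out. The 32 genes and the lists were chosen with earlier results of these data known. All 32 are described. Of the other pathway genes, those past a threshold in either table are described, or else the one with the smallest p in a list. DBI is added because its p nearly equalled that of VLDLR. For the cell type markers, list sums, some single levels and those past the authors' threshold are given. Of 157 listed symbols, 155 matched by symbol and 1 by gene ID, and PECAM1 was not analysed here. Motifs were searched on both strands of RefSeq windows.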

Additional observations from a re-analysis of the deposited data

Results flagged for a closer look

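PDK4 was singled out because the difference between its changes with the siRNAs passed an adjusted threshold. Each siRNA is 1 library, so the residual spread has 1 degree of freedom, from the controls. The limma prior, estimated over all tested genes, added 3.92. The test compares the siRNA libraries under the assumption that they vary as the controls do. The log2 change with siRNA-1 minus that with siRNA-2 was -1.74 (limma adjusted p = 0.0467 over all genes tested, between 0.0326 and 0.0635 under the alternatives, and not passing with a pseudocount of 0.1 or upper-quartile scaling). Both siRNA libraries, at 3.87 and 15.3 FPKM, were below both controls, at 44.6 and 45.2 FPKM. CEBPB itself was at 12.9 FPKM with siRNA-1 and 10.97 FPKM with siRNA-2 against 78.7 and 80.9 FPKM in the controls. The part of any other difference between the siRNA libraries in the PDK4 values was not tested.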

How the results depend on the processing

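The precision rests on 2 libraries per group and 1 per siRNA, and counting error is unknown. Of the single genes' log2 differences of CEBPB siRNA against control, recomputed under each alternative, 260 kept their direction and their side of the adjusted threshold, 18 came to pass it and 12 reversed. Of the 18, all came with 1 siRNA left out or with 3 groups. Between siRNA-1 and siRNA-2, 111 kept both, 1 came to pass (CPT1A), 2 no longer passed (PDK4) and 2 reversed. With 3 groups, 1 of the genes described was called higher and 6 lower, and over all genes 538 higher and 433 lower. Without a filter, 0 were called higher and 0 lower over all genes, with 2438 at an unadjusted limma p below 0.05. With the replicate block, 11 were called higher and 14 lower over all genes and 0 of those described. Same-numbered libraries deviated together with r = 0.0754 across genes, and the numbers pair nothing in the labels.

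Leaving out 1 library at a time gave 0 to 5 higher and 0 to 5 lower among the genes described, and 0 to 870 higher and 0 to 894 lower over all genes. The 0 calls over all genes came without control 1 or control 2, with 736 and 685 genes at an unadjusted limma p below 0.05, and 870 and 894 came without siRNA-2. Log2 differences that reversed ranged from -0.083 to 0.072 for ACACA, -0.23 to 0.73 for ACSL1, -0.15 to 0.32 for LPIN2, -0.47 to 0.21 for SREBF1, -0.18 to 0.22 for PPARD, -0.35 to 1.25 for CPT1A and -0.41 to 0.041 for CPT2. ACACA was also at 0.0096 with upper-quartile scaling. Between the siRNAs, median-of-ratios scaling put the log2 difference of CPT1A at 1.69 and turned FABP5 to 0.0090 and ACADM to 0.018. That of PDK4 was -1.95 with a pseudocount of 0.1 and -1.70 with upper-quartile scaling. The cause was not tested. The siRNA comparison has no residual degrees of freedom without a control, so no library was left out there.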
